A study of Mus musculus with 15 samples.

Results

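Cytosolic ribosomal proteins build the ribosomes that make all proteins encoded in the nucleus, and their genes are among the most active and most evenly expressed of a cell. Heat shock factor 1 (HSF1) is the transcription factor that activates chaperone genes when proteins misfold. It binds heat shock elements, which are inverted repeats of a short unit around GAA. Ribosomal protein genes are known as housekeeping genes and not as classical HSF1 targets. They are described here as a set of 28 genes, 18 of the large (60S) and 10 of the small (40S) ribosomal subunit, out of 21883 protein-coding genes with a position in GRCm38. The set was given by name, and its members were chosen with earlier results of these data known. A gene counted as bound in a group when each of its 2 libraries had a peak whose summit lay within 5 kb of either end of the gene.

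The data are HSF1 ChIP-seq peaks from brown adipose tissue of mice, a fat depot that makes heat by burning lipid and sugar. There were 10 libraries in 5 groups, each with 2 libraries. The groups were wild type at room temperature, wild type with 40 min of cold stress (2 groups, called the first and the second pair), wild type with 4 h of cold stress, and TXNIP KO with 40 min of cold stress. TXNIP is an arrestin that restrains glucose uptake. The labels leave unstated how the knockout was made, the age of the mice, and whether the libraries of a pair come from separate animals. The second pair's titles repeat the replicate numbers of the first pair with a suffix, and they are numbered 1 and 2 here.

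Peak lists differed widely in length, and the lists of the second pair and the knockout stood apart from the rest. They held 10399 to 14583 peaks on the standard chromosomes, against 123 to 2287 in the other 6 libraries, and 4299 to 5984 genes had a summit within 5 kb in each of them. Read depth is unknown, because a peak list holds no counts. All 9 chaperone genes used as a positive control, Hspa8, Hsp90ab1 and Hspd1 among them, had a peak in each of the 10 libraries. Txnip itself had a summit 204 to 275 bp from a gene end in the knockout libraries, with folds of 9.96 and 11.0. The deleted stretch is not stated in the labels, so this peak does not check the genotype. A peak list of HSF1 holds no expression values, so the tissue was not checked against its marker genes.

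Of the strongest HSF1 peaks at ribosomal protein genes, 1 for each gene and library, 58 were counted, all of them at 40 min of cold and nearly all in the long lists. Their folds ran from 2.74 to 14.9, far below those of the control chaperones. None of the 28 was bound at room temperature, against 2.00% of the other 21855 protein-coding genes, and none at 4 h, against 0.366%. Rpl15 and Rps18 were bound in the first pair at 40 min (7.14% of members against 3.13% of other genes). In the second pair 13 were bound (46.4% against 21.0%), and in the knockout 9 (32.1% against 16.0%). Counted by library, peaks lay near 13 and 18 members in the second pair (24.7% and 27.3% of other genes) and near 12 and 11 in the knockout (19.6% and 20.8% of other genes). With 2 libraries a group, no test over libraries was made, and the shares are descriptions. Whether the choice of members with earlier results known raised their shares was not tested. Of the other 52 cytosolic ribosomal protein genes, 19.2% were bound in the second pair and 25.0% in the knockout.

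The bound members came from both subunits. The second pair bound 8 genes of the large subunit (Rpl3, Rpl6, Rpl13, Rpl15, Rpl18, Rpl19, Rpl27 and Rpl30) and 5 of the small one (Rps9, Rps15, Rps18, Rps23 and Rps27). The knockout bound 6 of the large (Rpl6, Rpl13, Rpl15, Rpl18, Rpl19 and Rpl27) and 3 of the small (Rps9, Rps18 and Rps19). In all 4 of these libraries 8 members had a peak, against 14.6% of other genes. A further 11 members had a peak in 1 to 3 of the 10 libraries. In all, 19 of 28 members had a peak in at least 1 of the 4 long lists, against 33.2% of other genes. For 9 members no library had a peak. These were Rpl4, which lines the exit tunnel of the ribosome, Rpl5, Rpl11 and Rpl23, which can bind and restrain the p53 ligase Mdm2, and Rpl8, Rpl10a, Rpl14, Rpl37 and Rps2.

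**Figure D1:**
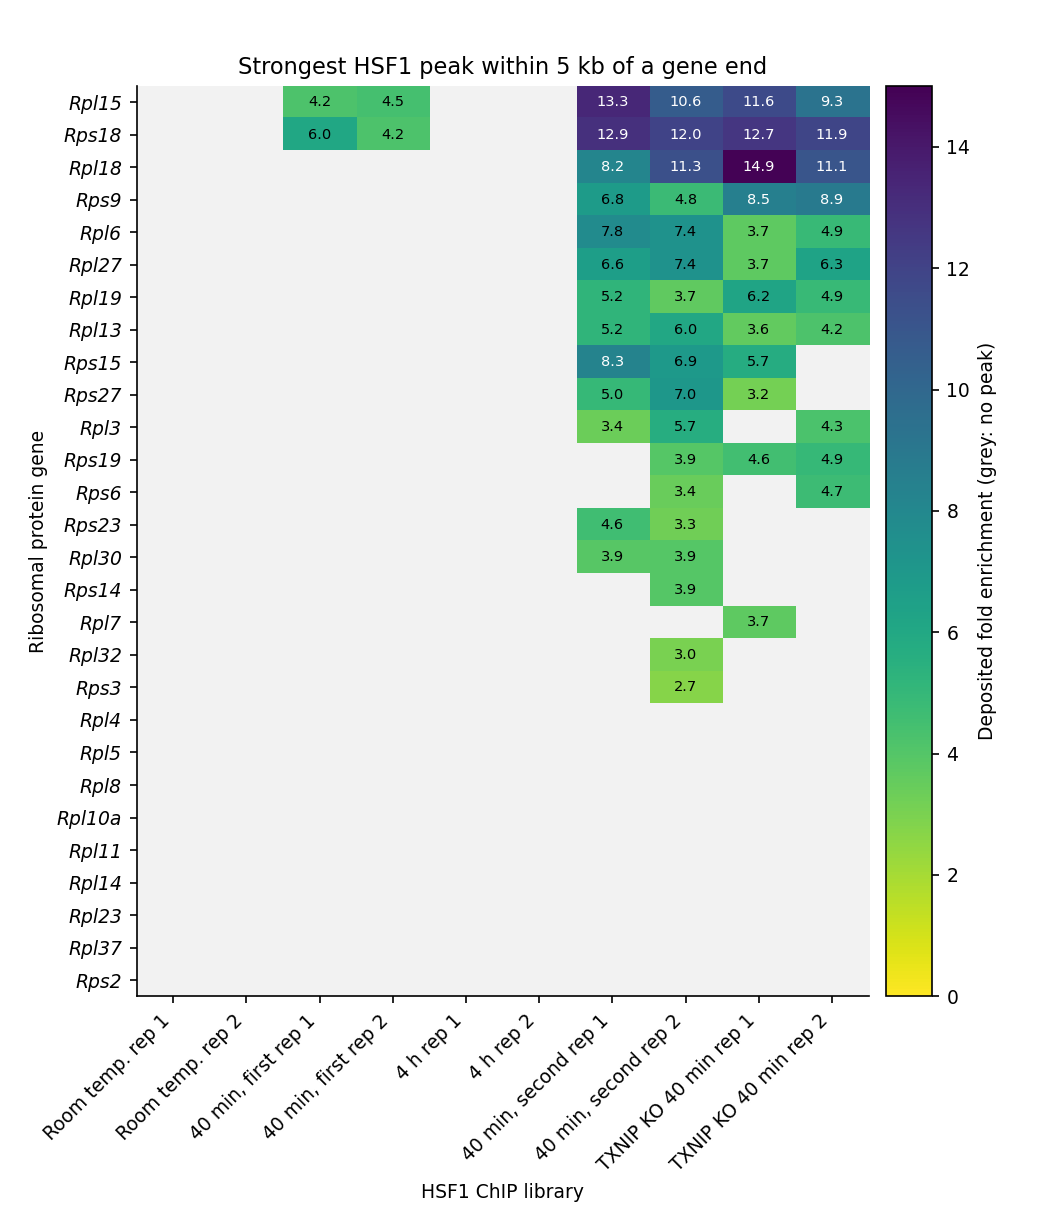
Deposited fold enrichment of the strongest HSF1 peak within 5 kb of an end of each of the 28 ribosomal protein genes (rows) in each of the 10 libraries (columns). Grey cells have no peak. Values are printed in the cells, and they reach 14.9 at Rpl18 in knockout replicate 1. Room temperature and 4 h are empty, and the first 40 min pair has peaks at Rpl15 and Rps18 alone.

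The sequences next to these peaks are shown for the members with the strongest peaks, since HSF1 is known for its DNA element. RefSeq promoters (GRCm38.p6, 250 bases before and 50 after a start) matched 22 of the 28 members. Rps18 was the only one of them with a heat shock element of 3 units. Printed 5′ to 3′ on the strand of the gene with the elements in capitals, the site spans chr17:33955859-33955888 and the element starts 215 bases before the Rps18 start:
Rps18 element: caactctgTTCCGGAACCTTCgctccgcgc
The stretch between the Rps18 start and the first base of its neighbour Vps52 (chr17:33955666-33955778) holds a further pair of units 77 bases before the start:
Rps18 to Vps52: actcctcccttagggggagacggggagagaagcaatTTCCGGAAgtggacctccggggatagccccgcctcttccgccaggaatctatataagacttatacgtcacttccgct
Rpl18 has 1 pair of units, 161 bases before its start (chr7:45717899-45717928, in capitals):
Rpl18 pair: cttctctttggTTCTGGAAgcctcggttta
The stretch between the Rpl15 start and its neighbour Nkiras1 (chr14:18270987-18271135) holds none, and the summits at Rpl15 lay outside it:
Rpl15 to Nkiras1: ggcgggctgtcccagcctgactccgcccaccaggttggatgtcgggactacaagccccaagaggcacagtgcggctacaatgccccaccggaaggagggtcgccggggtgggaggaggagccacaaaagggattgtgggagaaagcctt

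Pairs of heat shock units were found in the promoters of members at about the share of all promoters or less. Motifs were searched in these promoters alone. Sequence under summits outside them, such as those of Rpl6, Rpl15, Rpl27, Rps15 and Rps6, was not searched. The element of 3 units was searched on both strands as TTCNNGAANNTTC and its reverse complement GAANNTTCNNGAA. It was found in 1 of 22 members (4.55%), against 0.595% of the 17491 protein-coding genes with a promoter. The pairs GAANNTTC and TTCNNGAA, which each read the same on both strands and are parts of the longer element, were found in 1 (Rps18) and 2 (Rpl18 and Rps18) of 22 members, against 8.44% and 8.73% of genes. Among other genes bound in the second pair 1.12% held the element of 3 units. The motifs were chosen with the peaks known, and a match is a description and not a site.

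Rps18, whose protein sits in the head of the small subunit, had a peak over the element of 3 units upstream of its start. First pair libraries had folds of 6.04 and 4.17, second pair libraries 12.9 and 12.0, and knockout libraries 12.7 and 11.9. No room temperature or 4 h library had a peak there. The 6 summits lay between positions 33955839 and 33955979 of chromosome 17, 174 to 314 bp upstream of the Rps18 start, and 25 to 99 bp from the printed element. All 6 summits and the element lay inside the neighbouring gene Vps52, which begins 114 bp from Rps18 and runs the other way. Vps52 encodes a subunit of a vesicle tethering complex. The end of Vps52 was nearer to every summit, at 60 to 200 bp.

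Rpl15, a protein of the large subunit, was the other member with a peak in 6 libraries. Folds of 4.17 and 4.45 in the first pair stood beside 13.3 and 10.6 in the second, with 11.6 and 9.28 in the knockout. At both genes the folds of the first pair were below those of the 4 long lists. The summits lay 435 to 615 bp upstream of its start, inside the neighbouring gene Nkiras1, which encodes a restrainer of NF-kB signalling and begins 150 bp from Rpl15. The end of Nkiras1 was nearer to all 6 summits, at 285 to 465 bp. With peaks given to the nearest protein-coding gene end alone, the first pair therefore bound 0 members, against 2.42% of other genes.

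Rpl18, also of the large subunit, had the highest fold of the set, 14.9 in knockout replicate 1, beside 11.1 in replicate 2 and 8.15 and 11.3 in the second pair. The summits fell between positions 45717876 and 45717937 of chromosome 7, 134 to 195 bp upstream of the RefSeq start. All 4 were within 13 to 34 bp of the printed pair of units. The gene record of Rpl18 begins further upstream, so the same summits were 2409 to 2470 bp from the gene end. The nearest gene end, 65 to 126 bp away, was that of Sphk2, a sphingosine kinase gene on the opposite strand. This end lay between the summits and the Rpl18 start, and was nearer to each summit than that start.

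Peaks at 3 further members lay close to a start in each of the 4 long lists. At Rps9, a protein of the body of the small subunit, the folds were 6.77 and 4.80 for second pair libraries and 8.51 and 8.89 for knockout libraries, with summits 49 to 128 bp downstream of the RefSeq start. At Rpl13 they were 5.18 and 6.0 and then 3.63 and 4.17, with summits 63 to 177 bp upstream. At Rpl19 they were 5.18 and 3.69 and then 6.22 and 4.88, with summits 108 to 233 bp upstream of the nearest RefSeq start, inside the gene record. The nearest gene end there was that of the calcium channel gene Cacnb1, 3443 to 3568 bp away, so the distance to a gene end describes Rpl19 poorly.

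Promoters of Rpl13, Rpl18 and Rps9 hold the full cAMP response element TGACGTCA, which reads the same on both strands and is known as the site of CREB, a factor activated by the cAMP signal of cold. It was found in 3 of 22 members (13.6%), against 2.54% of all genes with a promoter and 3.70% of other genes bound in the second pair. All 3 members were among the 8 with a peak in the 4 long lists, where 14.6% of other genes had one in each. How often other genes with this element had such peaks was not counted, and a link was not tested. Each element is shown in capitals with 11 bases on either side:
Rpl13 (chr8:123102315-123102344): gcgggttcgcgTGACGTCActtccctttcg
Rpl18 (chr7:45717981-45718010): tcgcgctcatgTGACGTCAcccgtgcacca
Rps9 (chr7:3703973-3704002): gcggtgcgtgaTGACGTCActacaaggcga
The summits lay 39 to 153 bp from this element at Rpl13, 55 to 116 bp at Rpl18 and 99 to 178 bp at Rps9. CCGGAA or TTCCGG, the core bound by ETS factors, was found in 15 of 22 members (68.2%). This compares with 20.9% of genes and 29.5% of other genes bound in the second pair. Among the 15 were Rpl10a, Rpl11, Rpl14, Rpl37 and Rps2, which had no peak in any library. In both printed heat shock stretches of Rps18 the core overlaps the TTCCGGAA units.

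The remaining members with a peak in all 4 long lists were Rpl6 and Rpl27, both of the large subunit. Rpl6 had second pair folds of 7.76 and 7.38 and knockout folds of 3.74 and 4.91, 251 to 327 bp downstream of its start. Rpl27 had 6.57 and 7.38 and then 3.73 and 6.32, and its summits lay near the other end of the gene, 3092 to 3243 bp downstream of the start and 108 to 259 bp from the gene end. A weaker peak at the Rpl27 start, with a fold of 4.29, was called in second pair replicate 2 alone. Among the 8 members with a peak in all 4 long lists, both second pair folds were above both knockout folds at Rpl6, Rpl13 and Rpl27, both were below at Rps9, and the groups overlapped at Rpl15, Rpl18, Rpl19 and Rps18. Folds of different libraries were not tested as levels.

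Rps15 and Rps6 also had peaks past the far end of the gene. Rps15, in the head of the small subunit, had folds of 8.30 and 6.88 in the second pair and 5.72 in knockout replicate 1, with summits 621 to 642 bp beyond the gene. Rps6, the substrate of S6 kinase in growth signalling, had 3.43 in second pair replicate 2 and 4.74 in knockout replicate 2, with summits 679 to 706 bp beyond it. Knockout replicate 2 had no peak at Rps15, and replicate 1 of both groups had none at Rps6.

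**Figure D2:**
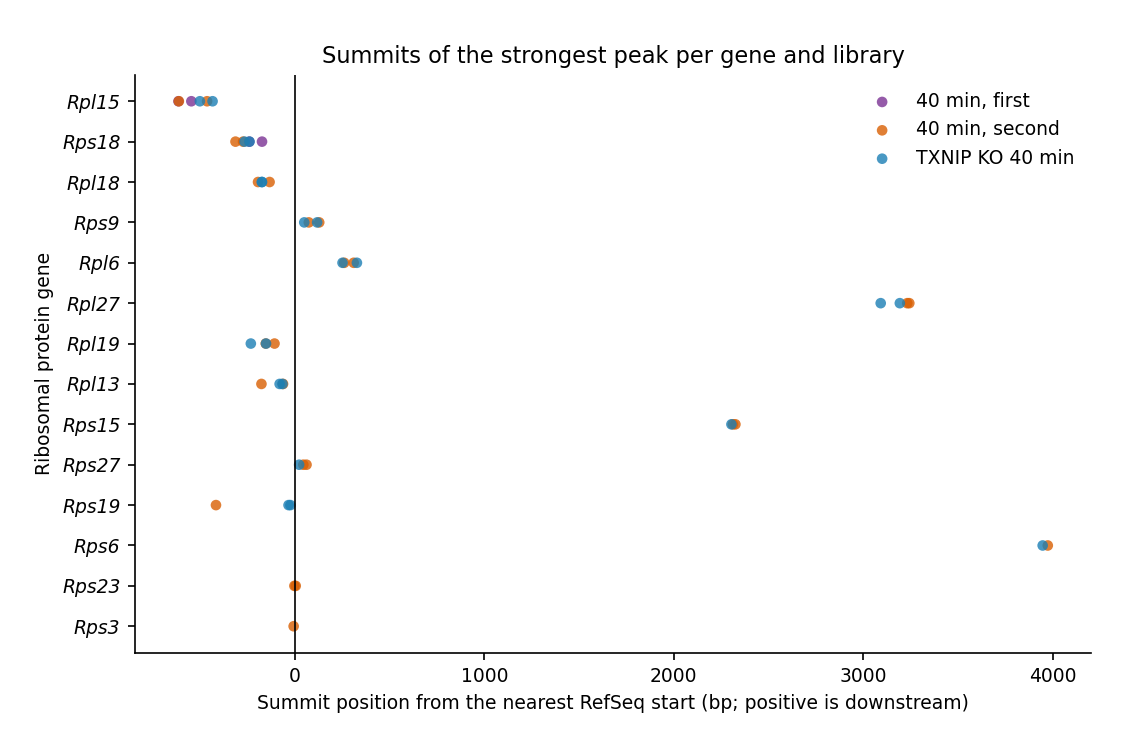
Position of the summit of the strongest peak of each member and library relative to the nearest RefSeq start, in bp on the strand of the gene (positive is downstream), for the 14 members with a peak and a RefSeq start. Points are libraries, coloured by group. Of 50 summits 37 lie within 500 bp of a start, while those of Rpl27, Rps15 and Rps6 lie over 2000 bp downstream.

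The other members had peaks of low fold in some of the long lists only. At Rpl3, a protein near the peptidyl transferase centre, second pair replicate 1 had 3.38 and knockout replicate 2 had 4.26 beside the same gene end. Second pair replicate 2 had 4.63 there and 5.66 at the opposite end. At Rps27, a zinc finger protein of the small subunit that lies 67 bp from Rab13, the folds were 4.98 and 7.03 in the second pair and 3.15 in knockout replicate 1. At Rps19, a gene mutated in Diamond-Blackfan anaemia, they were 3.94 in second pair replicate 2 and 4.56 and 4.94 in the knockout, the latter 24 and 34 bp upstream of a start. Rps23, of the decoding centre, had 4.58 and 3.26 in the second pair, 3 and 4 bp from the start. Rpl30, an RNA-binding protein of the large subunit, had 3.88 and 3.94. Rpl32, Rps3 and Rps14 had 3.05, 2.74 and 3.94 in second pair replicate 2 alone, and Rpl7 had 3.73 in knockout replicate 1 alone.

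Where both libraries of a group had a peak, they placed it alike. The strongest summits of the replicates were a median of 50 bp apart over the 13 members bound in the second pair and 67 bp over the 9 in the knockout. Rpl3 in the second pair, at 6528 bp, was the exception, because its replicates had their strongest peak at opposite ends. The larger fold of a pair was a median of 1.25 times the smaller in both groups and at most 1.69 times.

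Members were spread over the long lists below their strongest 10%. Ranked by fold, the strongest peak of a member lay a median of 39.0% and 48.5% down the second pair lists, against 53.1% and 53.2% for other genes with a peak. In the knockout lists it lay 61.0% and 57.5% down, against 50.4% and 51.8%. By these medians, members stood higher than other genes with a peak in the second pair lists and lower in the knockout lists. No test was made. Another measure was the number of strongest peaks by −log10 p kept in each list before a gene was bound in both libraries. By it, the median of the 13 members bound in the second pair was reached at 7096 peaks, later than the 6761 of other bound genes. In the knockout the bound members were later too, at 6206 against 4804. These measures differ in the genes they cover as well as in the ranking, so the change of direction in the second pair cannot be put down to the ranking. Rpl15, Rps18 and Rpl18 stood 16.5% to 30.7% down in each of the 4 lists. No member reached the strongest 10% of any list, which held 10.9% and 11.1% of other genes with a peak in the second pair lists and 12.0% and 11.5% in the knockout lists. At these shares few of the 11 to 18 members with a peak in a long list would stand there, and their absence was not tested. The best place was 16.5% down, at Rpl18 in knockout replicate 1. In the first pair, the Rps18 peak ranked 1373 of 2287 and 1571 of 1670 by fold, and the Rpl15 peak 2046 and 1501. For comparison, the peak at Hspd1 ranked first by fold in all 10 libraries, with 1296 and 1210 in the second pair.

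The strongest peaks of each list held no member. When each list was cut to its 919 strongest peaks by −log10 p, the length of the shortest list outside 4 h, 0 of 28 members were bound in any group. Of the other genes, 1.77% were bound at room temperature, 1.80% in the first pair, 1.90% in the second pair and 2.00% in the knockout. At these shares fewer than 1 of the 28 would be bound, so a count of 0 does not set members apart from other genes. The first member was bound once 2725 peaks of each second pair list were kept, and 2201 in the knockout, both times Rps18. With 3000 peaks of each list kept, 1 member was bound in the second pair (3.57%), against 5.35% of other genes. In the knockout 3 were (10.7%), against 5.47%. With 5250 peaks kept, 6 members were bound in the second pair (21.4% against 8.62%) and 4 in the knockout (14.3% against 8.59%). The median member of the 13 bound in the second pair needed 7096 peaks, beside 6761 for other bound genes, and that of the 9 in the knockout 6206, beside 4804.

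**Figure D3:**
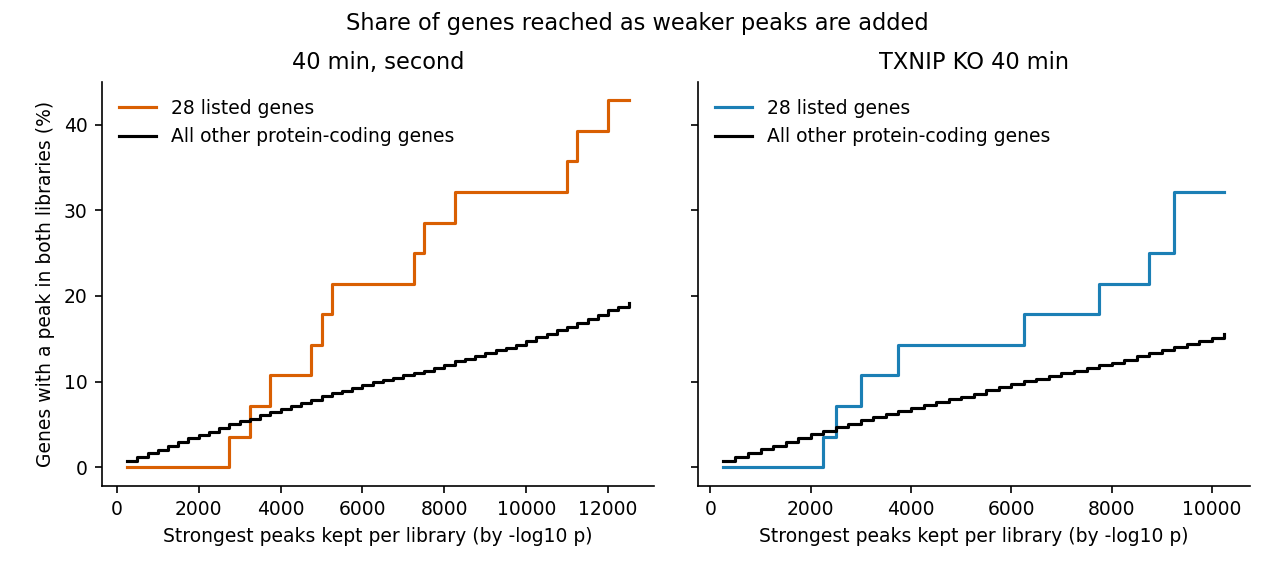
Percent of genes with a peak in both libraries against the number of strongest peaks kept per library (by −log10 p), for the second 40 min pair (left) and the TXNIP knockout (right). Coloured steps are the 28 ribosomal protein genes and black steps all other protein-coding genes. The coloured steps stay at 0 until 2725 and 2201 peaks are kept and end above the black ones.

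A larger share of the summits near members than of those near other genes lay close to a transcription start, with no test made. In the second pair, 8 of 11 and 11 of 14 strongest peaks of members with a RefSeq start were within 500 bp of one (72.7% and 78.6%), against 50.6% and 49.6% for other genes with a peak. In the knockout 8 of 11 and 8 of 10 were (72.7% and 80.0%), against 44.8% and 47.8%. Counting genes by a summit within 1 kb of a RefSeq start in both libraries, 2 of 22 members were bound in the first pair (9.09% against 1.80% of other genes), 9 in the second pair (40.9% against 14.6%) and 8 in the knockout (36.4% against 10.1%). With a peak given to the nearest gene end alone, 9 of 28 were bound in the second pair (against 16.6%) and 5 in the knockout (against 12.4%). Of the 8 members with a peak in all 4 long lists, 4 (Rpl15, Rps18, Rpl18 and Rpl19) had another gene's end nearer in each library. Library by library in the long lists, the nearest end was the gene's own for 63.6% to 77.8% of members with a peak. For other genes with a peak it was 76.7% to 77.3%. Small nucleolar RNA genes lay inside 6 of the 19 members with a peak and 5 of the 9 without. The share of other genes that hold them was not counted.

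The time course asks when HSF1 peaks appear and leave. From room temperature to the first pair at 40 min, 2 of 28 members were gained, Rpl15 and Rps18, against 0.622% of other genes. A member was gained when both later libraries and neither earlier one had a peak. At 4 h neither library had a peak at either gene. From room temperature to 4 h, 0 members were lost (1.29% of other genes), since none was bound at the start. Both gained peaks stood in the lower part of their lists by fold, and the room temperature lists were shorter, with 919 and 1269 peaks against 2287 and 1670. Between the wild type pairs, which share their labelled condition, 11 of 28 members were bound in the second pair and in neither library of the first (39.3% against 16.1% of other genes). The second pair lists held 12644 and 14583 peaks, so this cannot be told apart from list length.

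The genotype comparison asks which HSF1 peaks differ without TXNIP at 40 min of cold. Rpl30 and Rps23 had a peak in both second pair libraries and in neither knockout library (2 of 28, against 2.67% of other genes), and 0 members were gained in the knockout (against 0.302%). The second pair peaks at these genes lay 63.4% to 88.5% down their lists by fold. When the 4 lists were cut to the 10399 strongest peaks, the length of the shorter knockout list, 0 members were lost (177 of 21855 other genes, 0.810%) and 1 was gained, Rps19 (241 of 21855 other genes). No label ties the knockout to either wild type pair as its control. Against the first pair, a gain of members in the knockout cannot be told apart from list length.

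Other genes of translation gave a mixed picture, and the 28 listed genes do not stand for all cytosolic ribosomal proteins. Of the 52 other cytosolic ribosomal protein genes, 10 were bound in the second pair (19.2%) and 13 in the knockout (25.0%), beside 21.0% and 16.0% of all genes outside the 28. Over all 80, 23 (28.7%) and 22 (27.5%) were bound. Of 78 mitochondrial ribosomal protein genes, 30 (38.5%) and 27 (34.6%) were bound, and of 35 translation initiation and elongation factor genes 17 (48.6%) and 12 (34.3%). Ribosome biogenesis genes had 6 and 4 of 28, and chaperones of the ribosome and of ribosomal proteins 2 and 2 of 9, namely Naca, which shields nascent chains, and Grwd1. Of 31 proteasome subunit genes 6 (19.4%) and 3 (9.68%) were bound. Median folds of bound genes were 6.0 and 5.55 in the 28 genes, 7.37 and 4.23 in the other 52, and 555 and 493 in the control chaperones.

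**Figure D4:**
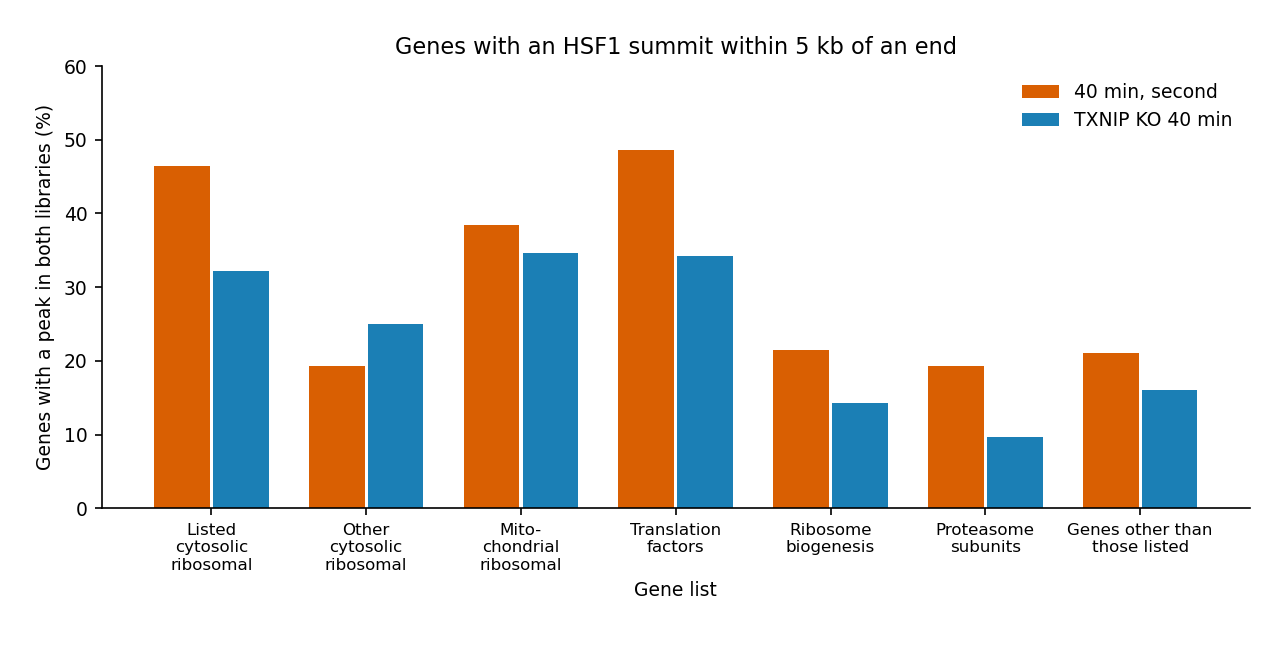
Percent of genes with a summit within 5 kb of an end in both libraries, in the second 40 min pair (orange) and the TXNIP knockout (blue), for 6 gene lists and for all genes other than the 28 listed. The 28 genes reach 46.4% and 32.1%, and the other 52 cytosolic ribosomal protein genes 19.2% and 25.0%, beside 21.0% and 16.0%.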

How the data were processed

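HSF1 ChIP-seq libraries of mouse brown adipose tissue were analysed as peak lists, 1 for each of 10 libraries. Per the labels' protocols, 2 mM DSG (25 min) and then 0.8% formaldehyde (12 min) fixed the tissue. The 5 input libraries were not analysed here, and 1 of them carries conflicting labels. MACS2 2.2.7.1, BWA 0.7.17 and Trim Galore 0.6.0 are named with GRCm38.p6, per the submitters' processing notes. Filters and the input behind each list are unstated. The authors deposited for each peak a fold enrichment, which is a linear ratio at the summit over local background, its p-value and q-value as −log10, and the summit. A deposited integer score was not used. Peaks were called per library, and the folds are the authors' own.

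Only peaks on the autosomes, X and Y entered, positions are 1-based, and protein-coding genes came from the RefSeq table of GRCm38.p6. Each gene was taken by its strongest peak by fold within 5 kb of an end. Peaks of different libraries sharing at least 1 bp formed regions. Counting was tested on simulated peaks, with Python 3.11.15, pandas 2.3.3 and numpy 2.4.6. An exact permutation test of 2 libraries against 2 cannot give a two-sided p below 0.333, and none was run. The alternatives were 1 kb and 10 kb, a −log10 q of 3 or more, shared regions, lists of equal length, the nearest gene and each replicate left out, and, chosen after seeing the data, RefSeq starts and equal knockout and second pair lists. Members with a peak in both libraries of a group were named with their values, as were genes nearer to their summits. The members and lists were chosen with earlier results of these data known.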

Additional observations from a re-analysis of the deposited data

How the results depend on the processing

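Of 93 values under an alternative setting, 78 stayed within 1.5 times of the count reported. Many of these 78 are counts of 0 that stayed 0, such as all those at room temperature and 4 h. A ratio says nothing about them. The loss from room temperature to 4 h could only be 0, since no member was bound at room temperature under any setting. No count changed by more than 1.5 times with 1 kb, 10 kb, a −log10 q of 3 or more, or peaks of both libraries in the same region. With lists of equal length, the members bound were 0 in the first 40 min pair, 0 in the second pair and 0 in the knockout, and 0 were gained to the first pair and 0 lost to the knockout. With the nearest gene end alone, 0 were bound in the first pair, 5 in the knockout and 0 gained to the first pair. Within 1 kb of a RefSeq start, 1 member was lost to the knockout. With knockout and second pair lists of equal length, 0 were lost and 1 was gained, beside 177 and 241 of 21855 other genes. With a replicate left out, 2 to 5 members were lost to the knockout (5 without second pair replicate 1 and 4 without knockout replicate 1, where 6.48% and 4.31% of other genes were lost, beside 2.67% with all libraries) and 0 to 1 were gained (Rps19 without second pair replicate 2 and Rpl7 without knockout replicate 2, where 1.05% and 1.17% of other genes were gained). The bound members were 13 to 18 in the second pair and 11 to 12 in the knockout with 1 library standing for its group. Apart from the settings that remove peaks or genes, the cause was not tested. No paired analysis was possible because the results come from no test. Depth is unknown, so a gene without a peak was not detected in that list and is not shown to be unbound.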

Other observations

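Some ribosomal protein genes outside the 28 had stronger HSF1 peaks than any of them in the long lists, named here after their values were seen. Rps13, of the small subunit, had folds of 4.51 and 5.44 in the room temperature libraries and 11.1 and 8.63 in the first 40 min pair. Second pair libraries had 34.0 and 32.4 there, and knockout libraries 31.1 and 29.3. Rplp2, of the ribosomal stalk, had room temperature folds of 6.20 and 4.30, first pair folds of 7.25 and 7.51, second pair folds of 24.1 and 24.6 and knockout folds of 33.2 and 27.3. The end of Pidd1 was nearer to its summit in all 8 libraries, at 104 to 329 bp. Rpl12 had a fold of 5.72 in room temperature replicate 1 alone of that group and first pair folds of 9.66 and 8.35. It had second pair folds of 34.0 and 33.6 and knockout folds of 32.2 and 30.2, with summits in all 7 libraries 2786 to 2838 bp from a gene end. No 4 h library had a peak at these 3 genes.

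Among translation genes, Eif4a2, an RNA helicase of initiation, had room temperature folds of 6.91 and 7.33 and first pair folds of 13.7 and 10.3. Its second pair folds were 44.6 and 46.7, and its knockout folds 43.2 and 37.7. Tpt1, translationally controlled tumour protein, had 5.48 and 9.57, 10.4 and 10.3, 48.2 and 49.6, and 37.3 and 38.3 in the same order. Both genes had a peak in 8 of 10 libraries and none at 4 h.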
